A study of Mus musculus with 2 samples.

Results

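The genes analysed were those of oxidative phosphorylation (OXPHOS), taken by the start of their symbols: mt-Nd, mt-Co, mt-Atp and mt-Cytb for genes of the mitochondrial DNA, and Ndufa, Ndufb, Ndufc, Ndufs, Ndufv, Uqcr, Cox4 to Cox8 and Atp5 for nuclear genes. This gave 103 of the 32285 features in the matrices, 90 nuclear and 13 mitochondrial members. The nuclear members hold 7 core subunits, 30 accessory subunits and 8 assembly factors of complex I, 8 genes of complex III, 20 of complex IV, 5 of the F1 part of the ATP synthase and 12 of its Fo part and stalk. Complex II and other related genes, whose symbols start otherwise, were counted in lists of their own.

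Both groups were WT mice of 6 to 9 weeks, and their preoptic area (POA), a hypothalamic region with neurons that control body temperature, was taken about 1 h after the mice had ultrasound (US+) or a sham procedure (US-). A group is a single library (n = 1) prepared from the pooled tissue of 4 mice, with about 25000 nuclei sorted for DNA stain and NeuN, an antigen of neuronal nuclei. The study sequenced these nuclei to look for a molecule that lets ultrasound activate the POA neurons of ultrasound-induced hypothermia and hypometabolism (UIH). Mice of a pool cannot be told apart, so no test was possible, and each US+ to US- value compares these libraries and not the conditions.

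Oxidative phosphorylation passes electrons from NADH and succinate through the complexes of the inner mitochondrial membrane to oxygen, and the proton gradient built on the way drives the ATP synthase. Most subunits are encoded in the nucleus, while a small hydrophobic set is encoded by the mitochondrial DNA and transcribed inside the organelle, so that its transcripts are made outside the nuclei that were sorted. Neurons rely on this pathway for their energy, and since every cell type uses it, no class of nuclei gives a background level for these genes.

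Promoter letters are shown for 6 nuclear members: the first 3 were lower in US+ in all 3 neuron classes described further on, and the last 3 were among the highest by ratio in their role. Each is the 170 bases before the RefSeq start on GRCm38.p6, read on the strand of the gene. Capitals mark matches, on either strand, to GCATGCGC (core of the NRF1 motif), CCGGAAG (ETS family motif) and AAGATGGCG (YY1 motif), and overlapping matches are merged. The stretches are chr4:24897913-24898082 (+) for Ndufaf4, chr5:115348959-115349128 (-) for Cox6a1, chrX:106015530-106015699 (+) for Cox7b, chr13:73328483-73328652 (-) for Ndufs6, chr10:80406822-80406991 (-) for Uqcr11 and chr16:84834977-84835146 (-) for Atp5j. Atp5j has 2 listed starts, and the stretch shown was chosen by its number of motif matches. NRF1 and the ETS factor GABP are known regulators of respiratory chain genes.
Ndufaf4: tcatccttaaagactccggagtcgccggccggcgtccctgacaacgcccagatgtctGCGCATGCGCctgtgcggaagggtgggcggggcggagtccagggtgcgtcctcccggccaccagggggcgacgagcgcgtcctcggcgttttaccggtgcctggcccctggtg
Cox6a1: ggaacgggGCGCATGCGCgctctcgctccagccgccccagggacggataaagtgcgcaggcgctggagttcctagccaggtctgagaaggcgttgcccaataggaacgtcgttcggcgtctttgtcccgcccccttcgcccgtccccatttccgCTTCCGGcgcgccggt
Cox7b: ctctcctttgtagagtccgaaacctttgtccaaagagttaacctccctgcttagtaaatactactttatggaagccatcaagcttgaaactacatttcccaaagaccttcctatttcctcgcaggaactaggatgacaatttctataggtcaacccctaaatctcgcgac
Ndufs6: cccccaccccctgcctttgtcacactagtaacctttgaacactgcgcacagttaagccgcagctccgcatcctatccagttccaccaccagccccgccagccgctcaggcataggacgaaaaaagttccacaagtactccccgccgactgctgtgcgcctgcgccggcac
Uqcr11: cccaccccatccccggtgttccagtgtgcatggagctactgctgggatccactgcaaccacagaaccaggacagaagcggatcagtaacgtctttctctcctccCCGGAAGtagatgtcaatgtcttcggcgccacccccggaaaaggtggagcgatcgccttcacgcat
Atp5j: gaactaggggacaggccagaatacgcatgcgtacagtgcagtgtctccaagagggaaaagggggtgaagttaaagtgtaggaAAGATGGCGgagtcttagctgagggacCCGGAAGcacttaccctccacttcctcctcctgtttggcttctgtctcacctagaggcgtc

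Ndufaf4 and Cox6a1 held the NRF1 letters on both strands, and Cox6a1 also held the ETS letters near its start. Cox7b and Ndufs6 held none of the motifs in the stretch shown. Uqcr11 held the ETS letters, and Atp5j the ETS and YY1 letters, so that in these stretches members with and without matches lay on both sides of the comparison. In the longer windows described next, Ndufs6 held 1 match and Cox7b none. Over windows from 250 bases before to 50 after the start, 74 of the 90 nuclear members matched a RefSeq entry. The NRF1 letters were in 14.9% of these (11 genes) and in 3.05% of all 27025 genes in the table. The shares were 23.0% (17 genes) and 9.93% for the ETS letters, and 10.8% (8 genes) and 1.64% for the YY1 letters. At least 1 motif was in 40.5% of the members (30 genes) and in 13.6% of all genes. A match describes letters and is not a measured site.

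Counts are unique molecular identifiers (UMIs), which count each captured transcript once. The US- matrix held 11725 barcodes and 101948623 UMIs, the US+ matrix 12075 barcodes and 95029281 UMIs, and 29 barcodes occurred in both. Nuclei with 200 to 7500 genes and at most 5% mt- UMIs were kept, 11663 in US- and 11899 in US+, with medians of 7334 and 6440 UMIs. Clusters were named from markers as GABAergic-like (4972 US- and 5438 US+ nuclei), glutamatergic-like (1891 and 2538) and striatal projection neuron-like (3448 and 1126). Striatal projection neuron-like nuclei thus made up 29.6% of US- but 9.46% of US+ nuclei. Gad1, an enzyme of GABA synthesis, stood at 144 and 120 CPM (UMIs of a gene scaled to the same total in each group of nuclei) in GABAergic-like nuclei of US- and US+ and at 15.6 and 21.6 CPM in glutamatergic-like nuclei, and the glutamate transporter Slc17a6 at 113 and 98.4 CPM in glutamatergic-like and 6.00 and 8.67 CPM in GABAergic-like nuclei. The dopamine receptors Drd1 and Drd2 were at 63.7 and 96.7 CPM in striatal projection neuron-like nuclei of US- and at 47.3 and 46.6 CPM in those of US+. Despite the NeuN sort, 105 US- and 273 US+ nuclei were astrocyte-like, and 57 and 186 oligodendrocyte-like.

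Over all nuclei, the nuclear members together were 1.07-fold and the mitochondrial members 1.23-fold as high in US+ as in US-. The nuclear sum was 2860.3 CPM in US- and 3064 CPM in US+, with an exact 95% interval of the ratio from 1.065 to 1.077. The mitochondrial sum was 611 CPM in US- and 752 CPM in US+ (1.218 to 1.245). These intervals, like those that follow, cover counting error only. In 86 of the 90 nuclear members, and in all 13 mitochondrial members, at least 50 UMIs were counted over both libraries. Of the 86, 75 lay above and 11 below a ratio of 1, and all 13 mitochondrial members lay above 1. The median ratio was 1.11 for nuclear members, 1.23 for mitochondrial members and 1.04 for all 20194 genes with as many UMIs, of which 12472 lay above 1. With TMM scaling, 64 of the 86 lay above 1 and the median of all genes was 0.996. With each cluster weighted equally, 48 of the 86 lay above 1 and the nuclear sum stood at a ratio of 0.997, whereas all 13 mitochondrial members stayed above 1 under both scalings.

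A ratio of at least 1.5 was reached by 1 of 86 nuclear and 1 of 13 mitochondrial members, against 7.99% of all genes. None was lower by as much, against 3.31% of all genes. The nuclear member was Cox6b2, a testis isoform of a complex IV subunit, with 66 UMIs (0.663 CPM) in US- and 88 UMIs (1.02 CPM) in US+, a ratio of 1.53 (1.099 to 2.14) that was 0.782 with each cluster weighted equally. The mitochondrial member was mt-Nd6, a complex I subunit, with 68 UMIs (0.683 CPM) in US- and 133 UMIs (1.53 CPM) in US+, a ratio of 2.24 (1.66 to 3.05). Both thus rested on few UMIs. The counts depended on the weight given to nuclei. As a mean over nuclei, 20 nuclear members were higher and 1 lower, 24.4% of the 86, with 8 of 13 mitochondrial members higher, against 14.0% of all genes in either direction. Without the striatal projection neuron-like clusters, 0 nuclear members were higher and 1 lower, and all 13 mitochondrial members were higher, against 8.13% of all genes in either direction.

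**Figure D1:**
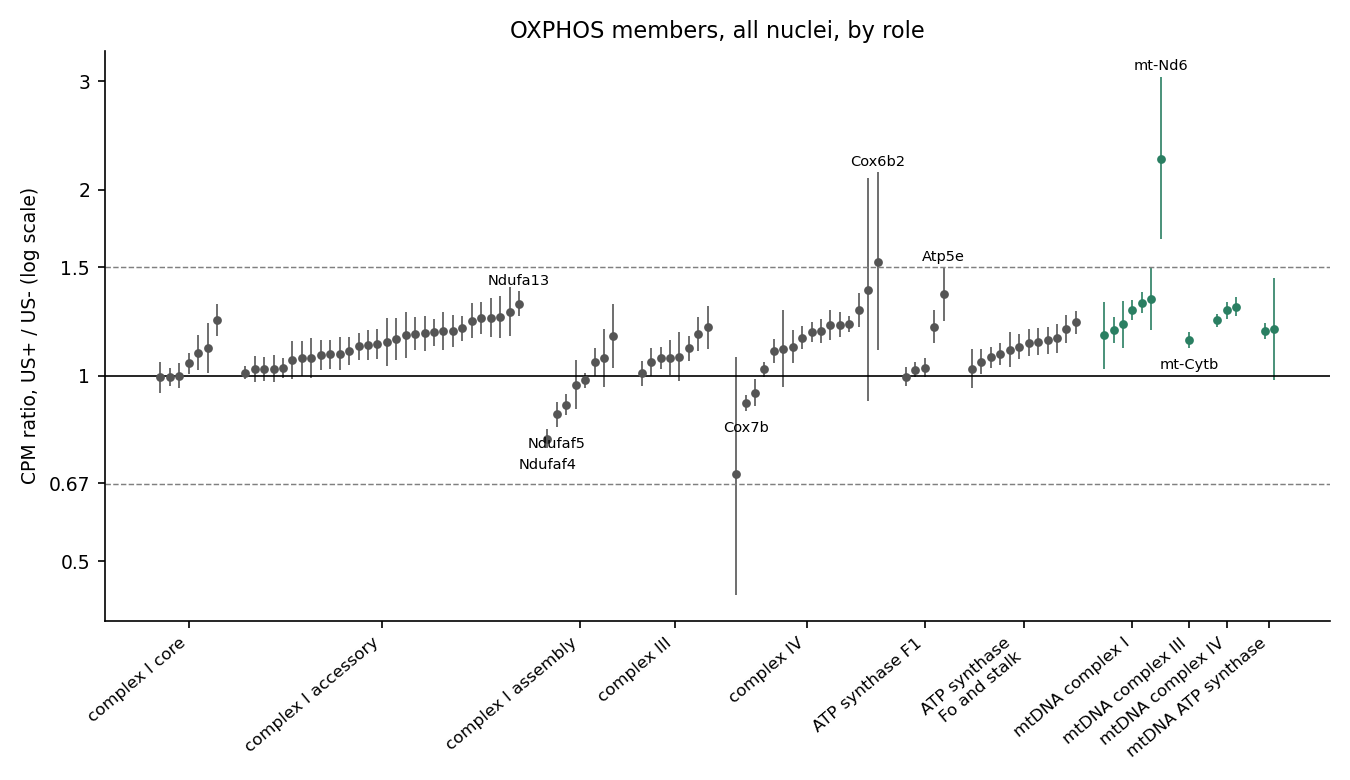
Ratio of CPM in US+ over US- (log axis) over all nuclei, for the 86 nuclear (grey) and 13 mitochondrial (green) members with at least 50 UMIs, by role; bars are exact 95% counting intervals and dashed lines mark a ratio of 1.5 and its inverse. All 30 accessory subunits of complex I lie above 1, and Ndufaf4 lies at 0.790.

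By role, the core subunits of complex I, which carry the electrons, summed to 236 CPM in US- and 246 CPM in US+ (ratio 1.04, 1.02 to 1.06). Ndufv1, which binds NADH, was at 24.5 and 24.3 CPM in US- and US+. The iron-sulfur subunit Ndufs1 was at 70.9 and 70.5 CPM, and the intervals of both ratios spanned 1. Higher in US+ were the iron-sulfur subunits Ndufs7, at 21.0 and 25.8 CPM (1.23, 1.16 to 1.31), and Ndufs8, at 9.33 and 10.4 CPM (1.11, 1.01 to 1.22).

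The accessory subunits of complex I, which surround and stabilize the core, lay above 1 in 30 of 30 cases, and their sum was 826 CPM in US- and 913 CPM in US+ (1.106, 1.095 to 1.117). Ndufa13 was at 33.5 and 43.8 CPM in US- and US+ (1.31, 1.248 to 1.37). Ndufs6 was at 8.90 and 11.3 CPM (1.27, 1.16 to 1.39). The lowest ratios of the role were those of Ndufs4, at 138 and 140 CPM (139.7 CPM in US+), and Ndufa6, at 35.4 and 36.2 CPM, and both intervals spanned 1.

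The assembly factors of complex I, which help to build the complex without staying in it, had the only role sum that was lower in US+, at 331 and 305 CPM in US- and US+ (0.922, 0.907 to 0.937). Ndufaf4 was at 73.8 and 58.3 CPM in US- and US+ (0.790, 0.762 to 0.819). Ndufaf5, which modifies Ndufs7, was at 42.4 and 36.7 CPM (0.865, 0.826 to 0.906). Not all 8 factors lay below 1: Ndufaf8 was at 5.42 and 6.28 CPM (1.16, 1.03 to 1.31), and Ndufaf3 at 7.18 and 7.68 CPM with an interval that spanned 1.

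Complex III, which passes electrons from ubiquinol to cytochrome c, had a nuclear sum of 209 CPM in US- and 226 CPM in US+ (1.079, 1.058 to 1.101). The small subunits Uqcr11 and Uqcr10 were at 12.2 and 14.6 CPM (1.198, 1.11 to 1.30) and at 19.8 and 23.1 CPM (1.17, 1.097 to 1.24). The core protein Uqcrc1 was at 38.4 and 38.8 CPM and the small subunit Uqcrq at 28.1 and 29.6 CPM, and both intervals spanned 1.

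Complex IV, the cytochrome c oxidase, had a nuclear sum of 596 CPM in US- and 654 CPM in US+ (1.097, 1.085 to 1.11). Cox5b was at 19.1 and 24.4 CPM in US- and US+ (a ratio of 1.28, with its interval above 1). Lower in US+ were Cox7b, at 92.4 and 83.4 CPM (0.903, 0.876 to 0.931), and Cox6a1, the broadly used isoform of its subunit, at 35.3 and 33.1 CPM (0.939, 0.893 to 0.987).

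Most isoforms with a restricted use had few UMIs in both libraries, with the exception of the testis isoform Cox7b2, which had 391 UMIs (3.93 CPM) in US- and 377 UMIs (4.35 CPM) in US+. Cox4i1 was at 84.2 and 102 CPM in US- and US+, and its oxygen-regulated partner Cox4i2 at 0.241 and 0.254 CPM. Cox8a was at 54.2 and 63.8 CPM, and the muscle isoform Cox8b was seen with 3 UMIs and 1 UMI. Cox7a2 was at 39.5 and 46.6 CPM, its relative Cox7a2l, which links complexes into supercomplexes, at 21.5 and 24.0 CPM, and the muscle isoform Cox7a1 at 0.452 and 0.623 CPM. The muscle isoform Cox6a2 was at 0.583 and 0.404 CPM (0.693, 0.442 to 1.07), and Cox6b1, the broadly used partner of Cox6b2, at 24.2 and 29.3 CPM. Ndufa4, a subunit now assigned to complex IV, was at 37.0 and 44.8 CPM, and its relative Ndufa4l2, known from pericytes, had 8 UMIs in US- and 34 UMIs in US+ (4.88, 2.22 to 12.2). The 7 endothelial and mural markers summed to 13.3 CPM in US- and 23.3 CPM in US+, and their part in the Ndufa4l2 difference was not tested.

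In the ATP synthase, the F1 sum was 263 CPM in US- and 274 CPM in US+ (1.04, 1.02 to 1.06). The large subunits Atp5b and Atp5a1, which hold the catalytic sites, were at 67.4 and 67.1 CPM (67.35 CPM in US-) and at 103.7 and 106 CPM, with intervals that spanned 1. The small subunits Atp5e (epsilon) and Atp5d (delta) were at 7.42 and 10.1 CPM (1.36, 1.23 to 1.50) and at 20.5 and 24.6 CPM (1.201, 1.13 to 1.28). Small subunits of F1 thus had higher ratios than the large ones.

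The Fo part and stalk of the ATP synthase, which form the proton channel and hold it to F1, summed to 399 CPM in US- and 446 CPM in US+ (1.119, 1.103 to 1.134). Atp5j2 was at 39.4 and 48.1 CPM (1.22, 1.17 to 1.28), and Atp5j, a coupling factor of the stalk, at 28.5 and 33.9 CPM (1.19, 1.13 to 1.252). The lowest ratios were those of Atp5mpl, at 16.3 and 16.7 CPM with an interval that spanned 1, and of the stalk subunit Atp5h, at 38.8 and 40.9 CPM (1.05, 1.01 to 1.103). Atp5g1, Atp5g2 and Atp5g3, which encode the same ring subunit, were at 36.4, 30.1 and 33.3 CPM in US- and at 40.5, 34.1 and 37.8 CPM in US+.

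Of the mitochondrial members, the complex I genes summed to 152 CPM in US- and 193 CPM in US+ (1.27, 1.24 to 1.30). mt-Nd1 was at 32.2 and 38.2 CPM, mt-Nd2 at 47.8 and 62.7 CPM, mt-Nd3 at 5.51 and 7.32 CPM, mt-Nd4 at 50.8 and 65.0 CPM, mt-Nd4l at 5.07 and 5.90 CPM and mt-Nd5 at 9.97 and 12.1 CPM. mt-Cytb, the cytochrome b of complex III, was at 86.8 and 99.3 CPM (1.14, 1.11 to 1.18), the lowest of the 13 ratios. The catalytic subunits of complex IV were at 61.3 and 79.3 CPM for mt-Co1, at 76.7 and 97.9 CPM for mt-Co2 and, for mt-Co3, at 142 and 175 CPM. The ATP synthase genes mt-Atp6 and mt-Atp8 were at 89.6 and 106 CPM and at 2.16 and 2.57 CPM. mt-Atp8 was the only one of the 13 whose interval spanned 1 (1.19, 0.982 to 1.44).

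The makeup of the mitochondrial UMIs was close between the libraries, and mt-Nd6 differed most in relative terms. mt-Co3 took 23.3% of them in US- and 23.2% in US+, mt-Atp6 14.7% and 14.1%, and mt-Cytb 14.2% and 13.2%. The 95% intervals of mt-Atp6 and mt-Cytb, and those of mt-Nd2 and mt-Co1, also lay apart between the libraries. mt-Nd6 took 0.112% (95% interval 0.0869 to 0.142) in US- and 0.204% (0.171 to 0.242) in US+. It is the only protein gene on the light strand and overlaps mt-Nd5, and the default counting named in the study's methods keeps reads of a gene's own strand.

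Mitochondrial UMIs were unevenly spread over nuclei. In the median nucleus, mitochondrial members made up 0.0323% of the UMIs in US- and 0.0585% in US+, a ratio of 1.81, and nuclear members 0.298% and 0.327%. The 1% of nuclei with the highest mitochondrial share held 17.0% of all mitochondrial member UMIs in US- and 9.07% in US+. At the other end, 14.8% of US- and 9.09% of US+ nuclei had none. With each nucleus thinned to 500 UMIs, 23.3% (22.5 to 24.0) of US- and 34.1% (33.2 to 34.9) of US+ nuclei had at least 1 mitochondrial member UMI, against 85.2% and 90.9% before thinning. For nuclear members the thinned shares were 78.0% and 81.5%, against 99.95% and 99.93%. The median nucleus thus differed more between the libraries than the sum did, and a few nuclei with very high shares added more to the US- sum.

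Within the neuron classes, the nuclear members nearly coincided between the libraries, and the mitochondrial members differed by class. In GABAergic-like nuclei, the nuclear sum was 3081 CPM in US- and 3089 CPM in US+ (1.003, 0.995 to 1.01), and the mitochondrial sum 408 and 663 CPM (1.625, 1.60 to 1.66). In glutamatergic-like nuclei, the nuclear sum was 2991 and 2956 CPM (0.988, 0.977 to 1.00), and the mitochondrial sum 401 and 651 CPM (1.625, 1.58 to 1.67). In striatal projection neuron-like nuclei, the nuclear sum was 2455 and 2365 CPM (0.963, 0.9497 to 0.977), and the mitochondrial sum 951 and 867 CPM (0.912, 0.891 to 0.933). The nuclear sum, higher in US+ over all nuclei, was therefore not higher beyond counting error in any of the 3 classes. The largest cluster of a class was cluster 5 in US- (13.8% of the class) and cluster 2 in US+ (17.8%) for GABAergic-like nuclei, and cluster 10 (28.3%) and cluster 4 (26.6%) for glutamatergic-like nuclei. Cluster 1 was the largest striatal one in both (44.4% and 33.6%). With nuclei classed one by one from Gad1, Gad2 and Slc32a1 against Slc17a6, the mitochondrial ratio was 1.12 in the GABAergic class. That class takes in nuclei of any cluster with these transcripts, striatal and unnamed ones among them. Their part in the lower ratio was not tested.

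**Figure D2:**
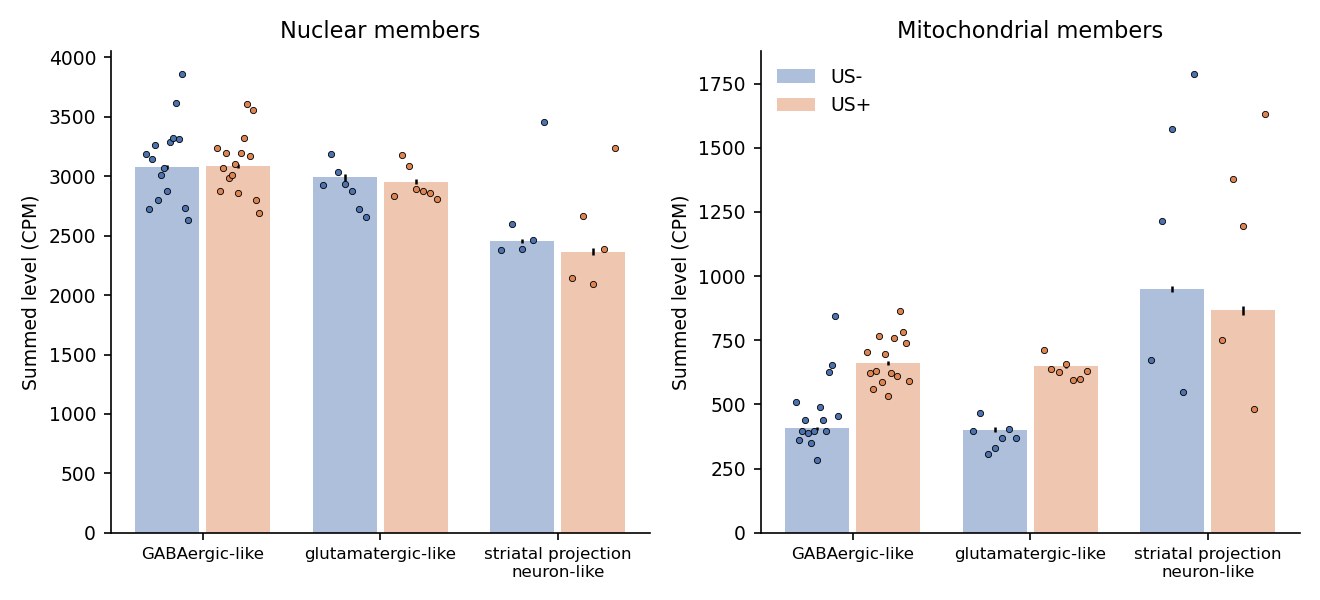
Summed CPM of nuclear and mitochondrial members in 3 neuron classes, with bars for the US- and US+ libraries, lines for exact 95% counting intervals and points for clusters with at least 50 nuclei in each library. Nuclear bars are nearly level between the libraries, whereas mitochondrial bars are higher in US+ in GABAergic-like (408 and 663 CPM) and glutamatergic-like (401 and 651 CPM) nuclei.

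The direction of the striatal mitochondrial sum rested on few nuclei. Of this class, 69 of 3448 US- nuclei had over 1% of their UMIs from mitochondrial members and held 25.0% of its mitochondrial member UMIs, and 14 of 1126 US+ nuclei held 14.0%. Without them the sum was 724 CPM in US- and 751 CPM in US+ (1.04, 1.01 to 1.06). The same step gave 1.62 in GABAergic-like and 1.56 in glutamatergic-like nuclei. The median share per nucleus was higher in US+ in each class, at 0.0320% and 0.0550% in GABAergic-like, 0.0312% and 0.0527% in glutamatergic-like and 0.0332% and 0.0506% in striatal projection neuron-like nuclei.

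**Figure D3:**
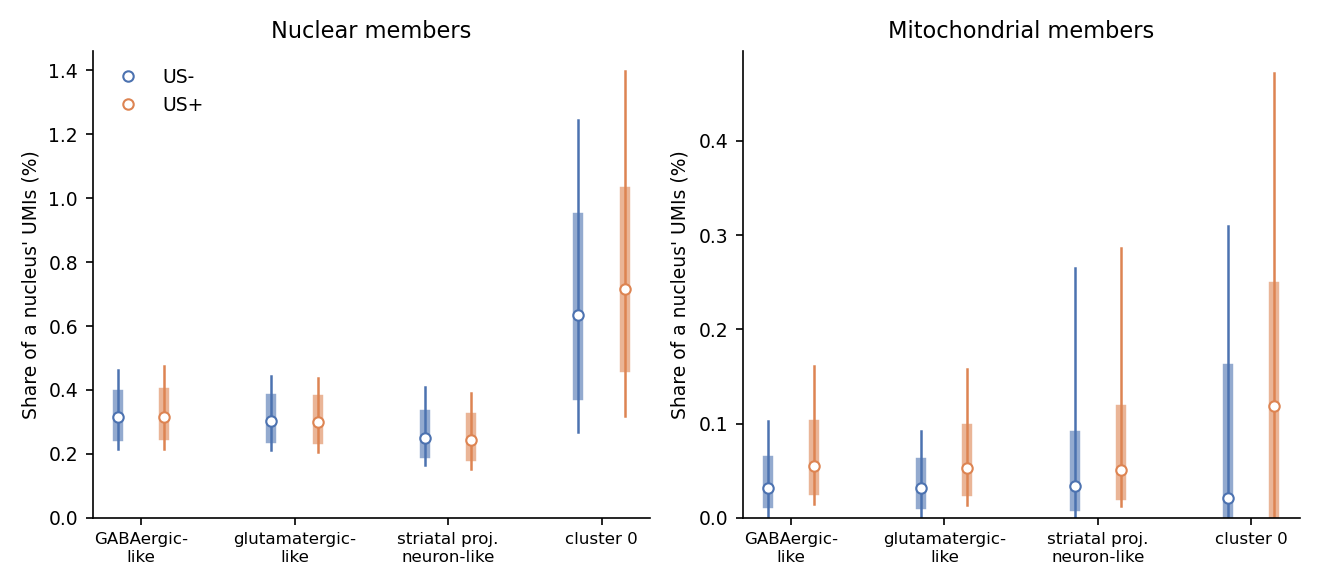
Share of the UMIs of a nucleus (%) from nuclear and from mitochondrial members in 3 neuron classes and cluster 0, by library, with the median as a circle, the interquartile range as a thick bar and the 10th to 90th percentile as a line. Mitochondrial medians are higher in US+ in each group, from 0.0320% to 0.0550% in GABAergic-like nuclei and from 0.0212% to 0.118% in cluster 0.

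Gene by gene, 13 of 13 mitochondrial and 0 of 86 nuclear members were at least 1.5-fold higher in US+ within GABAergic-like nuclei, against 5.73% of all genes. Lower by as much was 1 nuclear member, Cox6a2 with 33 UMIs in US- and 15 UMIs in US+, against 2.65% of all genes. Within glutamatergic-like nuclei, 10 of 12 mitochondrial members and 1 of 83 nuclear members were higher, against 3.64% of all genes, and none was lower, against 1.82%. The nuclear member was Cox7b2, a testis isoform, at 2.81 and 4.78 CPM. Within striatal projection neuron-like nuclei, no member passed 1.5-fold, against 6.46% of all genes higher and 7.53% lower, and 11 of 12 mitochondrial members lay below 1. The nuclear medians of 1.03, 1.01 and 0.956 in the 3 classes stood beside medians of 1.02, 0.995 and 0.9502 over all genes.

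Single mitochondrial genes followed the sums. In GABAergic-like nuclei, mt-Co3 was at 100.2 and 156 CPM in US- and US+ (1.56, 1.50 to 1.62), and mt-Co1 at 40.8 and 69.8 CPM (1.71, 1.62 to 1.81). In glutamatergic-like nuclei, mt-Co3 was at 96.9 and 154 CPM and mt-Atp6 at 50.3 and 85.5 CPM. mt-Nd6 had 22 UMIs in US- and 64 UMIs in US+ in GABAergic-like nuclei (2.86, 1.74 to 4.88). In striatal projection neuron-like nuclei, mt-Co3 was at 211 and 203 CPM and mt-Cytb at 140.0 and 120.0 CPM. Levels of these striatal genes lay above those of the other classes in both libraries.

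**Figure D4:**
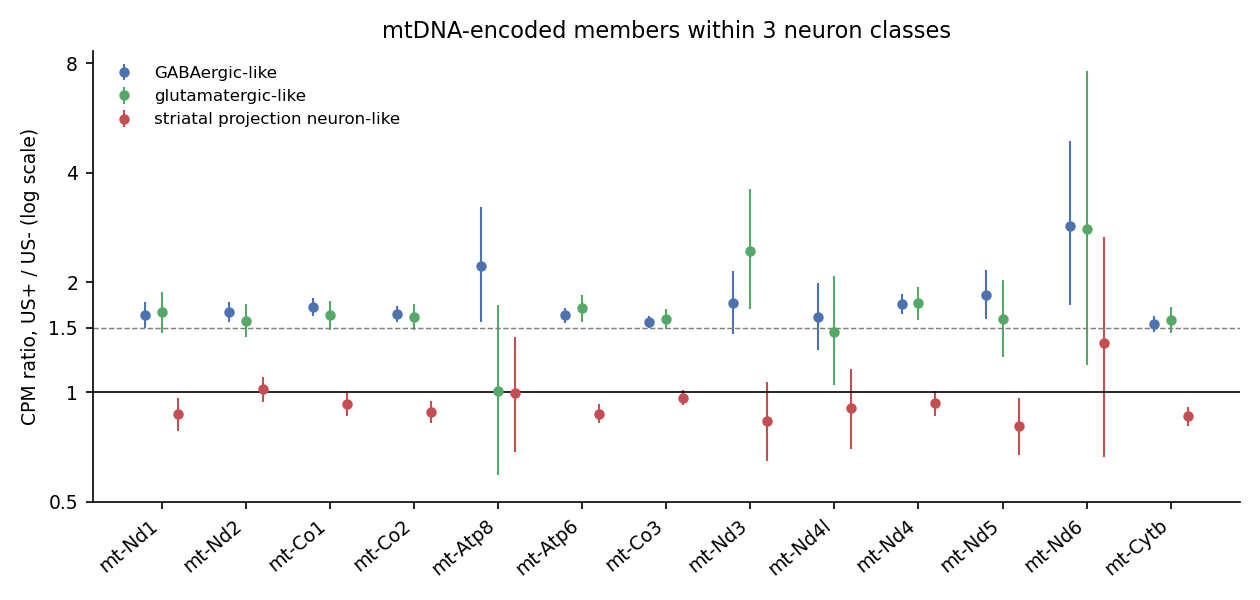
Ratio of CPM in US+ over US- (log axis) for each mitochondrial member within 3 neuron classes, with exact 95% counting intervals and a dashed line at 1.5. All 13 GABAergic-like ratios lie above 1.5, from 1.53 for mt-Cytb to 2.86 for mt-Nd6, and striatal ratios lie near or below 1 except that of mt-Nd6 (1.36), whose interval is wide.

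By ratio alone, some nuclear members differed in 1 direction in all 3 classes. With a ratio of at least 1.1 asked for in each class, 2 of 83 nuclear members were higher, against 5.58% of all genes, and 5 were lower, against 5.30%. The share was under that background for the higher and near it for the lower members. Of the 5, 3 were assembly factors of complex I. Ndufaf4 was at 80.9 and 60.1 CPM in GABAergic-like, 66.8 and 54.4 CPM in glutamatergic-like and 69.9 and 59.0 CPM in striatal projection neuron-like nuclei of US- and US+, with ratios of 0.742, 0.814 and 0.845. Ndufaf5 had ratios of 0.790, 0.872 and 0.863 in the same order, and Ndufaf2, a further assembly factor, 0.826, 0.902 and 0.849. The others were the complex IV subunits Cox7b, with ratios of 0.804, 0.826 and 0.896, and Cox6a1, with 0.860, 0.879 and 0.811. The higher members were Ndufs6, with 1.12, 1.26 and 1.21, and Atp5j2, with 1.1, 1.18 and 1.13. Counting intervals were not part of this count. Ndufs6 had only 454 UMIs in GABAergic-like and 111 UMIs in striatal projection neuron-like nuclei of US+.

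Of 32 clusters with at least 50 nuclei in each library, the nuclear sum was higher in US+ in 14 and lower in 18, with ratios from 0.876 to 1.065. The mitochondrial sum was higher in US+ in 25 of them, in 14 of 15 GABAergic-like, 7 of 7 glutamatergic-like and 2 of 5 striatal projection neuron-like clusters. The striatal clusters were far apart within a library. Cluster 1 was at 674 and 753 CPM in US- and US+, cluster 7 at 1215 and 1377 CPM, and cluster 12, in which Drd2 led, at 1573 and 1194 CPM. Cluster 18 was at 547 and 481 CPM and cluster 25 at 1789 and 1632 CPM.

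Avp and Oxt, and the transmitter markers of another class, were set beside the mitochondrial members. Avp and Oxt, which encode the neuropeptides vasopressin and oxytocin, summed to 34.5 CPM in US- and 71.3 CPM in US+ (2.07) in GABAergic-like nuclei. In striatal projection neuron-like nuclei they were at 33.2 and 69.5 CPM (2.09). The mitochondrial ratio of that class was 0.912, or 1.04 without nuclei that had over 1% of their UMIs from mitochondrial members. The 10 glutamatergic markers summed to 10.6 and 19.7 CPM (1.86) in GABAergic-like nuclei, and the 9 GABAergic markers to 175 and 191 CPM (1.09) in glutamatergic-like nuclei, where the mitochondrial ratio was 1.625. The part of free RNA in the mitochondrial difference was not tested. Whether Avp and Oxt came from free RNA or from the nuclei of these classes was not tested either.

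Between classes of 1 library, striatal projection neuron-like nuclei had a lower nuclear and a higher mitochondrial sum than GABAergic-like nuclei. The nuclear sum was 0.797-fold as high in US- and 0.766-fold as high in US+, and the mitochondrial sum 2.33-fold and 1.31-fold. The median nucleus did not share this mitochondrial difference. Its mitochondrial share was 0.0332% in striatal projection neuron-like and 0.0320% in GABAergic-like nuclei of US-, and 0.0506% and 0.0550% in US+. In US-, 6 of 83 nuclear members were lower by at least 1.5-fold, against 25.1% of all genes, and 1 was higher, against 11.2%. Cox7b was the lowest, at 59.8 CPM in striatal projection neuron-like and 115 CPM in GABAergic-like nuclei (0.519, 0.492 to 0.548), followed by the accessory subunit Ndufa8 at 9.82 and 16.4 CPM. Cox7b2 was the highest, at 5.53 and 3.32 CPM. In US+, 14 of 83 were lower, against 29.3%, and none was higher, against 8.66%. Ndufc1 and Ndufa2, accessory subunits, were the lowest there, at 12.3 and 23.0 CPM and at 9.89 and 17.5 CPM, and Ndufs6 was level (0.999). The core subunit Ndufs3 was among the highest in both libraries, at 42.5 and 35.2 CPM in US- and 39.5 and 36.1 CPM in US+. All 13 mitochondrial members were higher by at least 1.5-fold in US-, and mt-Atp8 alone of 12 in US+.

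The 10 astrocyte markers, all with UMIs in each class, were also high in striatal projection neuron-like nuclei, at 424 and 345 CPM in US- and US+ against 58.6 and 73.8 CPM in GABAergic-like nuclei. Of this, Slc4a4 made up 395 and 312 CPM. The other 9 markers summed to 29.6 and 33.3 CPM in striatal projection neuron-like and to 37.6 and 55.3 CPM in GABAergic-like nuclei. The part of astrocyte material in the mitochondrial difference between the classes was not tested.

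Glutamatergic-like and GABAergic-like nuclei were closer. The nuclear sum was 0.971-fold as high in US- and 0.957-fold as high in US+, and the mitochondrial sum 0.982-fold in both. In US-, no nuclear member passed 1.5-fold and mt-Atp8 was higher as 1 of 12, against 6.78% of all genes higher and 4.06% lower. In US+, no member was higher, against 5.45%, and Cox6b2 was lower as 1 of 84, against 2.97%. The lowest in US- were Ndufaf4, at 66.8 CPM in glutamatergic-like and 80.9 CPM in GABAergic-like nuclei, and Atp5mpl, at 15.3 and 18.4 CPM, and the highest Atp5g2, at 35.0 and 29.0 CPM, and the accessory subunit Ndufb8, at 24.2 and 20.8 CPM. In US+, Ndufaf8 (0.798) and Cox7b (0.865) were the lowest and Ndufs6 (1.16) and the accessory subunit Ndufa3 (1.11) the highest, the latter pair with intervals that spanned 1.

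The nuclear members differed more with the depth of the nucleus than between the libraries or the 3 neuron classes. Under 1000, from 1000 to 2000 and over 2000 UMIs, the nuclear sum was 8018, 5644 and 2836 CPM in US- and 9483, 6115 and 2961 CPM in US+. The shallowest nuclei were 2.83-fold (2.71 to 2.95) and 3.202-fold (3.13 to 3.27) as high as the deepest. The mitochondrial sum was 1542, 1946 and 603 CPM in US- and 2657, 2085 and 717 CPM in US+, ratios of 2.56 (2.31 to 2.82) and 3.71 (3.56 to 3.86). Several other transcripts, though not all, moved with depth in the same nuclei. Avp and Oxt were 6.55-fold as high in the shallowest as in the deepest nuclei of US- and 7.81-fold in US+, the 10 oligodendrocyte markers 4.41-fold and 2.42-fold, the 7 endothelial and mural markers 4.37-fold and 6.998-fold and the 10 astrocyte markers 1.42-fold and 2.25-fold. The 8 microglia markers were 0.967-fold and 0.705-fold as high, and the 5 neuron markers 0.836-fold and 1.006-fold. The nuclear RNA Malat1 was 0.650-fold (0.6503) and 0.574-fold as high. In nuclei of 1000 to 2000 UMIs, however, Malat1 was 1.296-fold and 1.060-fold as high as in the deepest. The part of other cells, free RNA or RNA quality in the difference with depth was not tested. Above 2000 UMIs the nuclear sum of the members fell further, from 3695 CPM at 2000 to 5000 UMIs to 2547 CPM over 10000 UMIs in US-, and from 4006 to 2614 CPM in US+. There were 364 US- and 1281 US+ nuclei with under 1000 UMIs, and within nuclei over 2000 UMIs the US+ to US- ratio was 1.04 for nuclear and 1.19 for mitochondrial members.

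**Figure D5:**
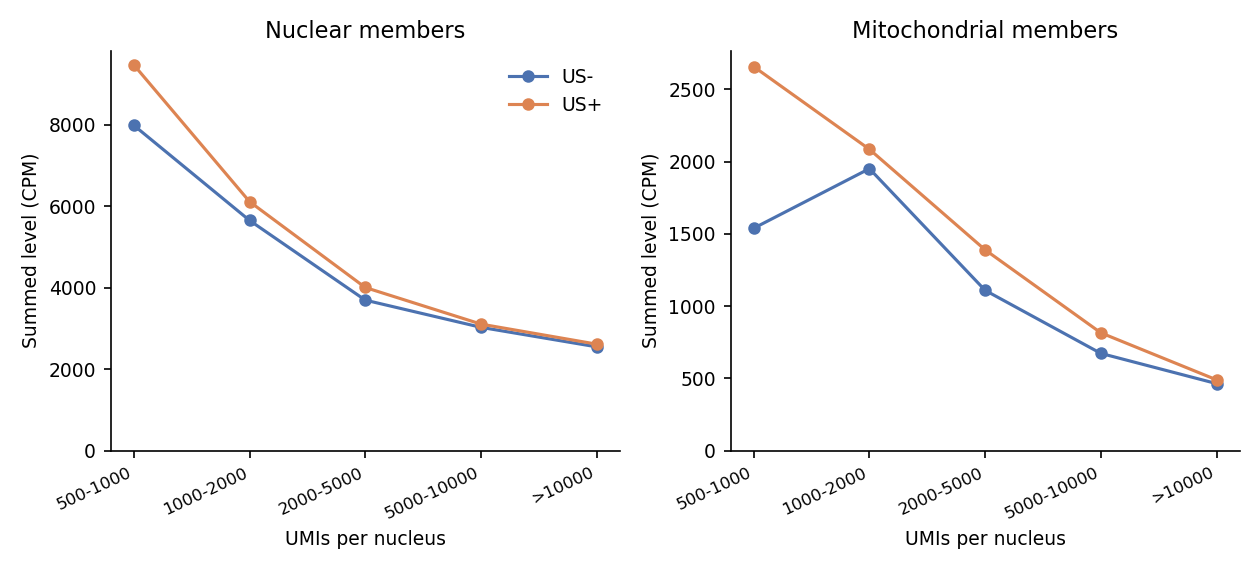
Summed CPM of nuclear and mitochondrial members by UMIs per nucleus, for the US- and US+ libraries over all kept nuclei. Nuclear sums fall with each step in depth, from 7989.8 to 2547 CPM in US- and from 9476 to 2614 CPM in US+.

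The difference with depth varied by role. In US+ nuclei, the sum under 1000 UMIs was 3.94-fold that over 2000 UMIs for complex IV, 3.78-fold for the Fo part and stalk, 3.59-fold for the accessory subunits of complex I and 3.54-fold for complex III. It was 2.41-fold for F1, 2.14-fold for the core of complex I and 1.06-fold for its assembly factors. Atp5e was at 73.1 CPM in shallow and 9.07 CPM in deep nuclei (8.06, 6.15 to 10.4), and the accessory subunit Ndufa1 at 77.7 and 10.6 CPM. Cox7b2 and the assembly factor Ndufaf1 were the lowest by ratio, with 1 UMI and 5 UMIs in the shallow nuclei and intervals that spanned 1. In US-, Ndufs6 was at 83.0 and 8.59 CPM and the accessory subunit Ndufb7 at 103 and 12.8 CPM, whereas Ndufs4 was at 103 and 138 CPM and Ndufv3 at 15.8 and 20.6 CPM, on 26 and 4 UMIs in the shallow nuclei and with intervals that spanned 1.

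Expected UMIs in shallow nuclei were taken from the mean of the shallow and deep levels, for members and all genes alike. A member at a low deep level thus entered only if its shallow level was high, and counts and medians lean toward such members. Of the nuclear members with at least 20 expected UMIs, 19 of 21 in US- were at least 1.5-fold higher in shallow nuclei. The share over all genes was 13.5%. In US+ they were 70 of 79, against 19.8%. None was lower, against 8.03% and 10.4%. All 6 mitochondrial members tested in US- and all 9 in US+ were higher. The medians of the nuclear members were 3.31 and 4.03, and those of all genes 0.959 and 0.997. Genes of the cytosolic ribosome had medians of 5.41 and 5.46, and those of the TCA cycle 1.14 and 1.05.

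The nuclear members are short genes, with a median span of 7.25 kb against 21.8 kb over all genes with at least 50 UMIs, and short genes as a whole were higher in shallow nuclei. In US+, genes under 5 kb had a median of 3.16 and the 23 members among them 5.00, and genes of 5 to 10 kb 1.54 and their 31 members 4.16. In US-, genes of 5 to 10 kb had a median of 1.48 and their 11 members 3.41, but under 5 kb all genes had 4.07 and the 4 members 3.66. Among genes that met the bound on expected UMIs, members lay above genes of like span in each of these bins but the last. Since that bound draws on the shallow level, these medians do not describe the members left out. The part of span in the difference with depth was not tested further.

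Most shallow nuclei fell into cluster 0, which stayed unnamed and was led by Gm19951, Avp, Gm42418, Fth1, Snhg9 and Rplp1. It held 559 US- and 2020 US+ nuclei, with medians of 830.0 and 818 UMIs, and these included 349 of the 364 nuclei under 1000 UMIs in US- and 1232 of the 1281 in US+. Its nuclear sum was 5691 CPM in US- and 6023 CPM in US+ (1.06, 1.022 to 1.097), and its mitochondrial sum 873 and 1281 CPM (1.47, 1.35 to 1.61). Assembly factors of complex I were lower in US+ here too, at 391 and 309 CPM (0.791, 0.688 to 0.913).

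At the bounds of the nucleus filter, kept nuclei with 4 to 5% mt- UMIs had a nuclear sum of 6521 CPM in US- (3 nuclei) and 8259 CPM in US+ (5 nuclei). Kept nuclei with 7000 to 7500 genes had 2314 and 2359.9 CPM, and those left out for more genes 2285 and 2503 CPM.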

How the data were processed

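POA nuclei were profiled by droplet single-nucleus RNA-seq with 3′ capture. The deposited matrices hold UMI counts per gene and nucleus, made by the authors with Cell Ranger 6.1.1 on mm10 (per the submitters' processing notes), with default parameters (which in that version count exonic reads on the strand of the gene) and both libraries brought to the lowest sequencing saturation, per the study's methods. UMIs of members with pseudogene or nuclear mitochondrial copies are uncertain.

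CPM are UMIs summed over kept nuclei scaled to 1000000 UMIs of the same nuclei. They are not per length, so genes were not compared with each other. Ratios have exact 95% conditional intervals and shares exact Clopper-Pearson intervals (Python 3.11.15, scipy 1.17.1). PCR and pooling errors are outside them. A gene counted as higher or lower past 1.5-fold if it had at least 50 UMIs over both groups. Between depths or classes, or within a class, it needed 20 expected UMIs in the smaller group, from the mean of both levels. The steps were tested on simulated data for the all-nuclei comparison: of 20207 genes 197 were changed, 98.0% of these were recovered, 0.990% of the others called, and 95.5% of intervals held the true ratio.

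Clusters were made with Seurat 5.3.0 (R 4.3.3): LogNormalize with a scale factor of 10000, 4000 variable features less 44 (members, mt- and immediate-early genes, 12 of them members), mt- share regressed out, 40 principal components, resolution 0.8. Doublets were treated only through the bound of 7500 genes. The rule joining markers to class names was chosen after clusters were seen, and members and lists were chosen with earlier results of these data known. Named are all mitochondrial members, the 2 highest and 2 lowest nuclear members per role, depth or class comparison and genes per related list (at least 100 UMIs), isoform genes and class markers. Members making up counts of 5 or fewer, and Ndufaf2, were named after their values were seen. Alternatives were TMM scaling (edgeR 4.0.16), equal weight per nucleus or cluster, and other filters, depth bins, folds, features, resolutions and class rules. A result on the related lists that the naming rule would give is not reported here.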

Additional observations from a re-analysis of the deposited data

Results flagged for a closer look

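The US+ to US- ratio of the mitochondrial sum lay on both sides of 1 in different classes, and the difference between classes was not tested. It was 1.625 in GABAergic-like, 1.625 in glutamatergic-like and 1.193 in endothelial and mural-like nuclei (1.005 to 1.426, from 18 US- and 90 US+ nuclei). It was 0.912 in striatal projection neuron-like, 0.549 in astrocyte-like and 0.598 in oligodendrocyte-like nuclei. The astrocyte-like sum was 4130.0 CPM in US- and 2267 CPM in US+, with median shares per nucleus of 0.227% and 0.140%. The oligodendrocyte-like sum was 2559 and 1530.3 CPM, but its median share was 0.0569% in US- and 0.0860% in US+, the opposite direction.

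Barcodes outside the comparisons also carried nuclear members. Those left out for over 5% mt- UMIs had a nuclear sum of 12117.5 CPM in US- (16 barcodes, 10734.8 to 13628.9) and 13845.8 CPM in US+ (34 barcodes, 12778.1 to 14979.0), against 2860.3 and 3064 CPM in kept nuclei. Their median depths were 912 and 831 UMIs.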

How the results depend on the processing

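No paired analysis was possible because each condition is 1 pooled library. A value counted as moved when it left its counting interval, which is narrow here. Of 128 summary values under alternatives, 60 did not move, 63 moved and 5 turned direction. Of 556 values of single members, their ratios or their shares of the mitochondrial UMIs, 401 did not move, 154 moved and 1 turned. The last was Cox6b2 at 0.782 with equal cluster weight. Sums of single roles were not put through the alternatives. The causes were not tested.

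The nuclear US+ to US- ratio (1.07) was 1.02 with TMM, 1.2504 as a mean over nuclei, 1.06 without a nucleus filter, 1.0547 with at least 1000 UMIs and at most 1% mt- UMIs, 1.04 over 2000 UMIs, 0.997 with equal cluster weight, 1.04 without striatal clusters, 1.09 for structural subunits and 1.097 for the median nucleus. The mitochondrial ratio (1.23) was, in that order, 1.18, 1.48, 1.2504, 1.32, 1.19, 1.08 and 1.60, and 1.81 for the median nucleus. Members past 1.5-fold in either direction (2, against 11.3% of all genes) numbered 29 as a mean over nuclei (14.0% of all genes), 1 without a nucleus filter (11.0%), 14 without striatal clusters (8.13%), 5 with no UMI minimum (25.6%), 1 with at least 200 UMIs (7.16%), 14 at a lower fold bound (26.2%) and 1 at 2-fold (3.52%).

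Nuclei of 500 to 1000 UMIs against 2000 to 5000, 5000 to 10000 and over 10000 UMIs gave nuclear ratios of 2.17, 2.65 and 3.15 in US- and 2.37, 3.05 and 3.63 in US+. Mitochondrial ratios were 1.39, 2.29 and 3.33, and 1.91, 3.26 and 5.43, and without the mt- filter 16.6 and 9.305.

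Classing each nucleus by its own markers gave 1.05 for nuclear and 1.12 for mitochondrial members in the GABAergic and 1.355 for mitochondrial members in the glutamatergic class. Nuclei with at most 1% mitochondrial member UMIs gave 1.56 in glutamatergic-like and 1.04 in striatal nuclei, a turn, and striatal to GABAergic-like ratios of 0.788 (nuclear, US-), 1.81 and 1.16 (mitochondrial). This setting and the median nucleus were chosen after seeing the data. Resolution 0.4 turned the striatal mitochondrial ratio to 1.05 and gave striatal to GABAergic-like ratios of 0.755 (nuclear, US+), 2.55 and 1.64. With members kept as clustering features, the striatal ratio was 0.993 and the ratios to GABAergic-like nuclei 2.39 and 1.46. Thinned to 2000 UMIs in 1 random draw, nuclear ratios were 1.02 in GABAergic-like and 1.003 in glutamatergic-like nuclei, a turn. Mitochondrial ratios were 1.58, 1.71 and, in striatal nuclei, 1.09, a turn. Another draw to this depth gave nuclear sums of 3311.6 and 3311.8 CPM in GABAergic-like nuclei of US- and US+. In glutamatergic-like nuclei it gave 3185.4 and 3174.0 CPM, so the nuclear turn did not recur.

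Thinned to 1000 and 2000 UMIs, 94.2% and 99.6% of US- and 95.6% and 99.5% of US+ nuclei had a nuclear member UMI, and 35.25% and 52.1%, and 47.8% and 66.8%, a mitochondrial one. Uncoupling and carrier genes past 1.5-fold fell from 3 to 1 with at least 200 UMIs, and ribosomal ones from 2 to 0 over 2000 UMIs. Depth limits the isoforms under 1 CPM, and a single pooled library per condition limits every comparison.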

Other observations

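Lists of related genes had medians on both sides of that of all genes, 1.04. Complex II and cytochrome c genes had a median US+ to US- ratio of 1.05 (0 of 6 past 1.5-fold), from Cycs, cytochrome c, at 14.0 and 12.7 CPM in US- and US+ and Sdhd at 10.9 and 10.7 CPM to Sdha at 85.9 and 94.03 CPM and Cyc1 at 24.6 and 28.6 CPM. Other assembly and cofactor genes had a median of 1.02 (0 of 39), from Sdhaf3 (27.7 and 21.3 CPM) and Lyrm7 (14.2 and 11.9 CPM) to Uqcc2 (12.6 and 15.9 CPM) and Surf1 (7.58 and 9.65 CPM). Mitochondrial import genes had 1.03 (0 of 21), with Timm9 and Timm10 at 0.957 and 0.965 and Tomm20 and Timm17b at 1.17 and 1.21. The TCA cycle had 1.00 (0 of 18), with citrate synthase Cs at 0.939, Idh3g at 0.944, Idh2 at 1.14 and Suclg2 at 1.14. The mitochondrial ribosome had 1.02 (0 of 78), with Mrpl42 and Mrpl36 at 0.825 and 0.855 and Mrpl16 and Mrpl17 at 1.24 each. Over all genes, 7.99% were higher by 1.5-fold.

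Regulators of mitochondrial biogenesis had the lowest median, 0.953 (0 of 24). Ppargc1b, a coactivator of respiratory genes, was at 65.9 and 49.7 CPM in US- and US+ and Tfb1m at 7.15 and 5.72 CPM, while Polg2 and Esrrb were at 1.15 and 1.19 by ratio. Glycolysis (1.09) had 3 of 21 genes past 1.5-fold, the hexokinase Hk2 with 29 and 68 UMIs, Aldoc, an aldolase of astrocytes, at a ratio of 1.71, and the glucose transporter Slc2a1 at 5.14 and 8.65 CPM. Ldhb (0.924) and Slc16a7 (0.935) were its lowest. Uncoupling and carrier genes (1.07) also had 3 of 21, Pdk4 with 14 and 40 UMIs, Ucp2 with 95 and 188 UMIs and Ucp3 with 35 and 69 UMIs, while Slc25a13 was at 55.2 and 43.3 CPM and Mpc1 at 88.7 and 74.7 CPM. Hk2 and Pdk4 were named after their values were seen. The 10 oligodendrocyte markers summed to 76.5 CPM in US- and 126 CPM in US+. The 10 astrocyte markers summed to 207 and 190 CPM, and the 7 endothelial and mural markers to 13.3 and 23.3 CPM. The part of these cells in the differences was not tested.

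Genes of the cytosolic ribosome had the highest median, 1.27, with 82 of 83 above 1, among them Rplp1 (33.8 and 52.6 CPM). Rpl3l (0.954 and 0.807 CPM) and Rpl22 (21.6 and 21.7 CPM) were the lowest.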
